A study of Mus musculus with 4 samples.

Results

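Retnla, Arg1, Chil3, Mrc1, Cd163, Ccl17, Ccl22 and Ccl24 are 8 of the 27998 genes counted in each of 4 mouse kidney single-cell libraries, and are the genes by which alternative activation of macrophages is usually read. They were selected on their UMI counts in these same libraries (a UMI marks 1 captured transcript). The counts were those in 3 sets of cells taken as phagocytes by UMI thresholds. The levels of the 8 genes by day are thus given as a description, and no test was made on them. C1q macrophages were cells with at least 5 UMIs of C1qa, C1qb and C1qc together, 652 cells in all. Lyz2-high cells had at least 5 UMIs of Lyz2 and at most 4 of C1q, 841 cells, and MHC-high cells had at least 20 UMIs of H2-Aa, H2-Ab1, H2-Eb1 and Cd74 together, 0 of Cd79a and at most 4 of C1q, 740 cells. The mice were male C57BL/6, 6 to 8 weeks old, and received glyoxylate into the peritoneal cavity on 0, 1, 4 or 7 successive days, a treatment that leads to calcium oxalate deposition in the kidney. These groups are called D0, D1, D4 and D7, and D0 is the untreated group. Each is 1 library, and the sources used here do not say how many mice went into it. There is thus no replicate check of any difference between days, and all intervals below are 95% intervals that cover counting error only.

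Alternative activation is the programme that macrophages take up under IL-4 and IL-13, which signal through receptors sharing IL-4Rα to the transcription factor STAT6. Genes usually read as its markers include secreted or enzymatic effectors. Retnla is the resistin-like secreted protein also called FIZZ1, Arg1 the arginase that splits arginine into ornithine and urea, and Chil3 the chitinase-like lectin Ym1. Others are endocytic receptors: Mrc1 is the mannose receptor CD206, and Cd163 the receptor for haemoglobin bound to haptoglobin. The rest are chemokines. Ccl17 and Ccl22 are ligands of CCR4 on T cells, and Ccl24 is an eotaxin that binds CCR3 on eosinophils. In kidney injury these genes are commonly used to mark macrophages of the repair phase, although several are also made by resident macrophages, monocytes or dendritic cells at rest.

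On mm10, Retnla (ENSMUSG00000061100) lies at chr16:48842551-48844461 on the plus strand, Arg1 (ENSMUSG00000019987) at chr10:24915221-24927484 on the minus strand, and Chil3 (ENSMUSG00000040809) at chr3:106147554-106167564 on the minus strand. Mrc1 (ENSMUSG00000026712) lies at chr2:14229392-14332057 and Cd163 (ENSMUSG00000008845) at chr6:124304656-124330527, both on the plus strand. Ccl22 (ENSMUSG00000031779, chr8:94745590-94751699) and Ccl17 (ENSMUSG00000031780, chr8:94810453-94812036) are neighbours on the plus strand, with 58753 bases between the end of the first and the start of the second. Ccl24 (ENSMUSG00000004814) lies at chr5:135569937-135573049 on the minus strand. All 8 are annotated as protein-coding, and the counts are of the 3′ ends of their transcripts. Chil3 has a close relative, Chil4, and how reads shared by the 2 genes were counted is not given in the sources used here.

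STAT6 is known to bind a pair of half-sites, TTC and GAA, with 4 bases between them, TTCNNNNGAA, and other STAT factors bind the form with 3 bases between, TTCNNNGAA. The fixed letters of both motifs read the same on the 2 strands, so a search of 1 strand covers both. The bases just before the start of 4 members, from RefSeq on GRCm38.p6, are shown to set the letters before genes of each of the 3 gates side by side: Retnla for C1q macrophages, Chil3 for Lyz2-high cells, and the neighbours Ccl17 and Ccl22 for MHC-high cells. All are written 5′ to 3′ on the strand of the gene, and capitals mark a match to either motif. Retnla is chr16:48842359-48842550 on plus, Chil3 chr3:106167565-106167814 on minus, Ccl17 chr8:94810203-94810452 on plus and Ccl22 chr8:94745434-94745589 on plus.
Retnla: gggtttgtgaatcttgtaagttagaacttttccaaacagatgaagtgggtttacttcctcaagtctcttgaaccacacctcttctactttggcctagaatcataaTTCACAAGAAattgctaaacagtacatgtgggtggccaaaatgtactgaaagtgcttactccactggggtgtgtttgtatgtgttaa
Chil3: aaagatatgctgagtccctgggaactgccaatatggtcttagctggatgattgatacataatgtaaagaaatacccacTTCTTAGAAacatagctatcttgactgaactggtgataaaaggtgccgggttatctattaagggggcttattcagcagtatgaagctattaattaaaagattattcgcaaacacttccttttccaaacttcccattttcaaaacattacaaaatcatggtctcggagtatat
Ccl17: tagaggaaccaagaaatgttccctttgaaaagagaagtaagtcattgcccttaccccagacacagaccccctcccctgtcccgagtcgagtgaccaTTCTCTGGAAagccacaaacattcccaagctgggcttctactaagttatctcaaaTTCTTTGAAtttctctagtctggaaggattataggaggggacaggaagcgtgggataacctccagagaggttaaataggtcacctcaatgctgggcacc
Ccl22: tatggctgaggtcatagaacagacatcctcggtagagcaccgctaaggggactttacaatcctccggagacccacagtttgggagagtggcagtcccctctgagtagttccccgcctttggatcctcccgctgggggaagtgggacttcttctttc

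Retnla held 1 match to the motif with 4 bases between, TTCACAAGAA, 87 bases before the start of the gene given above. Ccl17 held TTCTCTGGAA 154 bases and TTCTTTGAA 99 bases before its start, and Chil3 held TTCTTAGAA 172 bases before its start. No match was in the window shown for Ccl22 or in those of Mrc1 and Cd163. RefSeq entries were matched for 6 of the 8 members, and Arg1 and Ccl24 were not among them. The windows differ in length, because bases inside a gene model were left out. Of 32851 mouse promoters, the first 250 bases of the window before the start held TTCNNNNGAA in 5.85% and TTCNNNGAA in 7.02%, the first 192, as for Retnla, in 4.58% and 5.56%, and the first 156, as for Ccl22, in 3.87% and 4.59%. A match describes letters and is not evidence of binding.

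The 4 libraries held 85009491 to 99337001 UMIs, and 11382 to 16102 cells per library were kept after filtering. The lowest depth of any barcode was 500 UMIs at D0 and D1 but 2919 at D4 and 2773 at D7, so shallow cells are present on 2 of the 4 days only. C1q macrophages numbered 156, 175, 127 and 194 at D0, D1, D4 and D7, with median depths of 2348, 3112, 5283 and 5863 UMIs. Lyz2-high cells numbered 122, 282, 120 and 317 (median depths 3968, 5931, 4412 and 3979) and MHC-high cells 94, 226, 147 and 273 (4450, 6281, 4631 and 4991), with 37, 115, 47 and 105 cells counted in both. Pairs of libraries shared 50 to 81 barcodes and 0 among the gated cells. Tyrobp, an adaptor of myeloid cells that defines none of the gates, had a UMI in 90.9% to 96.1% of C1q macrophages by day. The share was 97.5% to 100% of Lyz2-high cells and 73.6% to 88.1% of MHC-high cells. At least 2 UMIs over 6 phagocyte genes were held by 74.4% to 93.4% of MHC-high cells, but also by 36.9% to 66.1% of T cells. These genes thus do not show every MHC-high cell to be a phagocyte. S100a8, a marker of neutrophils, had a UMI in 10.7%, 14.9%, 5.83% and 5.99% of Lyz2-high cells by day. RNA of tubule cells was present in every gate, at 30.8% to 55.1% of its level in tubule cells in the C1q gate. Without the cells rich in it, 5 of 23 ratios of a member to D0 moved beyond their counting intervals. Its part in the results was not tested beyond this.

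Each member was concentrated in 1 gate. Over the 4 days, C1q macrophages held 96.0% of the 5410 Retnla UMIs of all kept cells, 92.3% of the 260 of Arg1, 93.8% of the 225 of Ccl24, 84.6% of the 720 of Mrc1 and 84.4% of the 96 of Cd163. Lyz2-high cells held 94.6% of the 3716 Chil3 UMIs. MHC-high cells held 89.2% of the 288 Ccl17 UMIs and 83.8% of the 74 of Ccl22. On a given day, for the 20 pairs of member and day with at least 30 UMIs over the 3 gates, the highest gate was at least 2 times the next in all 20, also without the cells that met both the Lyz2 and the MHC definition and among cells of at least 3000 UMIs. The same count was not made over all genes, and the members were chosen on these same gates, so nothing is read from it. By share of UMIs, Chil3 was mostly in Lyz2-high cells, Ccl17 and Ccl22 in MHC-high cells and the other 5 in C1q macrophages. Levels are given below as counts per 1000000 UMIs summed over the cells of a gate (CPM), and a level is compared between days and gates but never between genes.

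**Figure D1:**
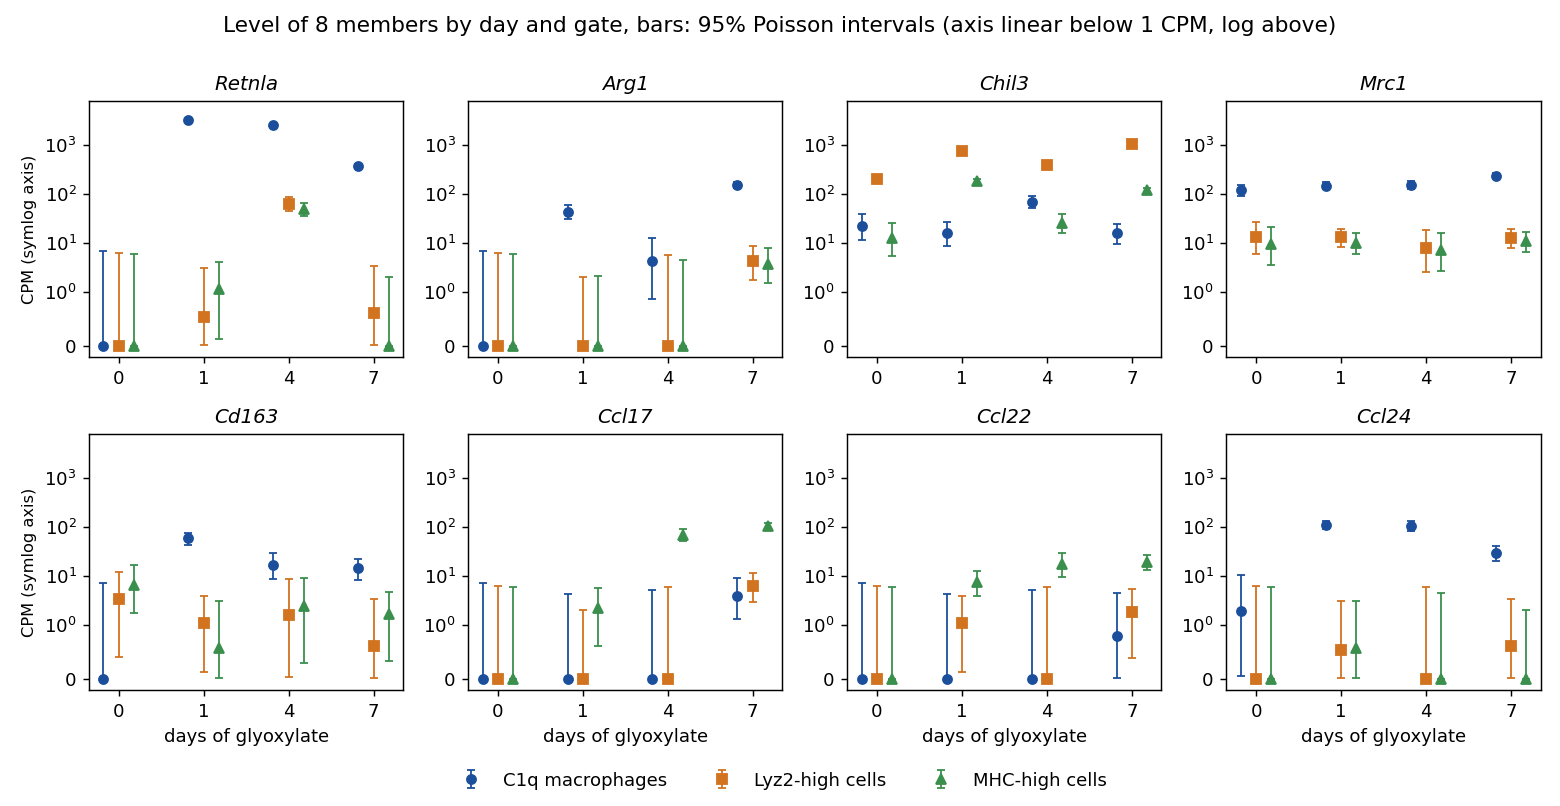
Level of each of the 8 members (CPM, axis linear below 1 and logarithmic above) against days of glyoxylate, in C1q macrophages (circles), Lyz2-high cells (squares) and MHC-high cells (triangles), with 95% Poisson intervals as bars. Retnla, Arg1, Mrc1 and Ccl24 lie highest in C1q macrophages at D1, D4 and D7, Chil3 in Lyz2-high cells on every day, and Ccl17 and Ccl22 in MHC-high cells at D1, D4 and D7.

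A member was called higher or lower than at D0 where the ratio of levels was at least 2 or at most 0.5 and the pair of days held at least 30 UMIs of it. In C1q macrophages at D1, 4 of the 5 members with that many UMIs were higher (Retnla, Arg1, Cd163 and Ccl24) and 0 were lower, beside 4.25% and 2.10% of all 5010 genes measured. At D4, 3 of 4 were higher (Retnla, Chil3 and Ccl24) and 0 lower, beside 5.53% and 4.71% of 4648 genes. At D7, 3 of 5 were higher (Retnla, Arg1 and Ccl24) and 0 lower, beside 6.31% and 4.49% of 5797 genes. In Lyz2-high cells Chil3 was higher at D1 (1 of 2 members, 0 lower, beside 3.93% and 1.83% of 6623 genes) and at D7 (1 of 1, 0 lower, beside 4.30% and 2.32% of 6378 genes), and Retnla at D4 (1 of 2, 0 lower, beside 3.62% and 4.85% of 4556 genes). In MHC-high cells Chil3 was higher at D1 (1 of 1, 0 lower, beside 5.00% and 2.51% of 6819 genes), Retnla and Ccl17 at D4 (2 of 2, 0 lower, beside 2.65% and 3.31% of 5014 genes), and Chil3, Ccl17 and Ccl22 at D7 (3 of 3, 0 lower, beside 7.58% and 2.75% of 7021 genes). The members were chosen on these same comparisons, so nothing is read from their counts against those of all genes.

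Retnla, the secreted effector, was not detected at D0 and was abundant in a few C1q macrophages from D1 on. There were 0 Retnla UMIs in the 156 C1q macrophages at D0, and with a floor of 3 counts this allows up to 1.92% of cells with a UMI (exact upper limit 2.34%). This limits cells with a UMI at a median depth of 2348, not cells that express the gene. At D1 there were 2841 UMIs in 9 of 175 cells (5.14%, interval 2.38 to 9.54), at D4 1870 in 16 of 127 (12.6%, 7.38 to 19.7) and at D7 485 in 4 of 194 (2.06%, 0.565 to 5.19). After every cell was thinned to 1000 UMIs, with 33 shallower cells left out at D1 and 9 at D0, the shares were 5.15%, 11.9% and 1.65%. The D4 share was the highest of the 3, and its interval overlaps that of D1 but not that of D7.

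The level of Retnla was 3241 CPM (3123 to 3363) at D1. It was 2635 CPM (2517 to 2757) at D4 and then 382 CPM (349 to 418) at D7. Against a floor of 3 UMIs in the D0 library these are at least 571-fold, 464-fold and 67.4-fold higher. The level at D7 was 0.145 times that at D4 (0.131 to 0.160). A few cells carried most of it: the richest cell held 1495 of the D1 UMIs (52.6%), 475 of the D4 UMIs (25.4%) and 227 of the D7 UMIs (46.8%). Without the richest cell of each day the bounds were 275, 349 and 36.0, so that the order of D1 and D4 turned. Among cells of at least 3000 UMIs, where D0 is represented by 54 cells, the D0 count was again 0 (up to 5.56% of cells with a UMI by the same floor, exact upper limit 6.60%). In the same range 9 of 95, 16 of 124 and 4 of 181 cells were positive at D1, D4 and D7. The bounds among those cells were 421, 302 and 44.6.

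In Lyz2-high and MHC-high cells, Retnla had at most 2 UMIs on any day but D4. The 40 UMIs in Lyz2-high cells at D4 (62.7 CPM) and the 40 in MHC-high cells (48.9 CPM) were those of 1 cell that met both definitions. Proximal tubule cells, which should lack the gene, had a Retnla UMI in 0%, 0.429%, 0.406% and 0.163% of cells on the 4 days, at median depths of 4748 to 5564 UMIs, and never more than 1 UMI per cell. By contrast 26 of the 29 positive C1q macrophages held 5 UMIs or more.

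Arg1, the arginase, was mainly a D7 gene of C1q macrophages. It had 0 UMIs at D0, 38 in 1 cell at D1 (43.4 CPM), 3 in 2 cells at D4 (4.23 CPM) and 199 in 26 of 194 cells at D7 (157 CPM, 136 to 180.3; 13.4% of cells, 8.95 to 19). The D7 level was at least 27.6-fold higher than at D0, and at least 18.3-fold among cells of at least 3000 UMIs. Unlike Retnla it was spread over its positive cells, with a median of 7 UMIs each and 12.6% of the UMIs in the richest. Thinned to 1000 UMIs per cell the D7 share was 6.94%.

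The D1 value of Arg1 rests on 1 cell, so that its bound of 7.64 at that time is no property of the gate. That cell held 18237 UMIs, among them 15 of Retnla, 51 of Prg4, 2 of Gata6 and 6 of Timd4. Gata6 and Prg4 are known markers of macrophages of the peritoneal cavity, and this was the only C1q macrophage with both. These genes were looked at after the cell's values were seen. In the other gates Arg1 was at 0 at D0, D1 and D4 and at 7 UMIs in 2 cells at D7, and in proximal tubule cells at D7 it had 1 UMI in 0.0816% of cells.

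Chil3, the chitinase-like lectin Ym1, was present in Lyz2-high cells before treatment and was higher at D1 and D7. The gate held 121, 1428, 248 and 1717 Chil3 UMIs on the 4 days, or 205 CPM (169.9 to 245), 773 (734 to 814), 389 (342 to 440.1) and 1057 (1008 to 1109). The ratios to D0 were 3.78 at D1 (interval 3.14 to 4.59), 1.90 at D4 (interval 1.52 to 2.38) and 5.17 at D7 (interval 4.29 to 6.26). D4 lay between D0 and the other days, and none of the 4 intervals of the level overlapped. Without the richest cell of each day the D4 ratio was 2.01 (1.59 to 2.56), just past the 2-fold line. Positive cells made up 25.4%, 40.8%, 39.2% and 55.5% of the gate, and 13%, 25.7%, 22.6% and 40.2% at 1000 UMIs per cell.

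The Chil3 signal was spread over many Lyz2-high cells, since the richest held 13.2%, 6.30%, 7.26% and 2.56% of the UMIs by day. In MHC-high cells Chil3 was 12.8, 183, 25.7 and 119 CPM, so that D1 was 14.3 times D0 (7.19 to 33.5) and D7 was 9.30 times D0 (4.64 to 21.8). This gate shares cells with the Lyz2-high gate, as given above. In C1q macrophages it was 22.7, 16.0, 69.0 and 15.8 CPM, and all 12 UMIs at D0 lay in 1 cell. The D4 value was 3.04 times D0 (1.59 to 6.28), and at least 7.66 times without the richest cell of each day, which leaves 0 UMIs at D0, but 1.98 times (1.04 to 4.08) among cells of at least 3000 UMIs, under the 2-fold line. In proximal tubule cells a Chil3 UMI was seen in 0.00957%, 0.286%, 0.104% and 0.299% of cells.

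Mrc1, the mannose receptor, was the member of C1q macrophages with the most even level over the days. It had 64, 131, 111 and 303 UMIs, or 121 CPM (93.3 to 155), 149 (125 to 177), 156 (129 to 188) and 239 (213 to 267). The intervals of D0, D1 and D4 overlap, and D7 lies above all 3. The ratios to D0 were 1.23 (0.909 to 1.69), 1.29 (0.941 to 1.79) and 1.97 (1.5 to 2.63), all below 2. Among cells of at least 3000 UMIs the ratios were 2.40 (1.53 to 3.92), 2.34 (1.48 to 3.84) and 3.55 (2.32 to 5.68), all above 2, so the side of the 2-fold line on which Mrc1 falls depends on this limit on depth.

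Mrc1 was found in 28.8%, 15.4%, 26.8% and 43.8% of C1q macrophages, and at 1000 UMIs per cell in 14.7%, 7.97%, 10.8% and 16.2%. In the thinned shares D0 and D7 are thus close. The highest count in a cell was 6 at D0, 24 at D1, 10 at D4 and 13 at D7, so D1 had fewer positive cells at a level like that of D4. Lyz2-high cells held 13.5, 13, 7.83 and 12.9 CPM of Mrc1 and MHC-high cells 9.59, 10.1, 7.34 and 10.9, and the intervals of the 4 days overlap in each of these gates.

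Cd163, the haemoglobin scavenger receptor, was found in C1q macrophages of the treated days and was most abundant there at D1. It had 0 UMIs at D0, 51 in 5 cells at D1 (58.2 CPM, 43.3 to 76.5), 12 in 7 cells at D4 (16.9, 8.74 to 29.5) and 18 in 8 cells at D7 (14.2, 8.41 to 22.4). The D1 level was at least 10.3-fold higher than at D0. A single cell held 27 of the 51 D1 UMIs, and without it the bound was 4.90 with fewer than 30 UMIs left, so that no call could be made. The level at D4 was 0.291 times that at D1 (0.141 to 0.552). Lyz2-high and MHC-high cells had at most 6.40 CPM on any day and never more than 1 UMI per cell.

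Ccl24, the eotaxin, had a summed level in C1q macrophages that was lower at D7 than at D1 and D4, as for Retnla. It had 1, 97, 76 and 37 UMIs in 1, 6, 18 and 13 cells, or 1.89 CPM (0.0479 to 10.5), 111 (89.7 to 135), 107 (84.4 to 134) and 29.2 (20.5 to 40.2). The ratios to the single D0 UMI were 58.5 (10.3 to 2334), 56.6 (9.86 to 2265) and 15.4 (2.60 to 625). The D1 and D4 levels did not differ beyond counting error, and the D7 level was 0.272 times that at D4 (0.179 to 0.409). At D1, 46 of the 97 UMIs were in 1 cell. At D7, only 3 of the 13 Ccl24-positive cells also held Retnla. Lyz2-high and MHC-high cells held at most 1 UMI on any day.

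Ccl17, the CCR4 ligand also known as TARC, was called higher than at D0 in MHC-high cells at D4 and D7. There were 0, 4, 56 and 197 UMIs in 0, 2, 5 and 10 cells, or 0, 2.25 (0.613 to 5.76), 68.5 (51.7 to 89.0) and 107 CPM (92.6 to 123). Against the floor at D0 the D4 and D7 levels were at least 14.3-fold and 22.3-fold higher. The richest cell held 30 of the 56 UMIs at D4 and 85 of the 197 at D7, and without these the bounds were 6.70 and 12.7, the D4 one with fewer than 30 UMIs and so no call. Without cells rich in tubule RNA the D4 bound was 8.48, and with the UMI thresholds of the gate doubled the D7 bound was 34.7. The D7 cell with 85 UMIs of Ccl17 also held 31 of Slc34a1, a transporter of proximal tubule cells. The part of such RNA in the result was not tested beyond the setting without cells rich in tubule RNA.

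Ccl22, the neighbour of Ccl17 and the other CCR4 ligand, had 0, 13, 14 and 35 UMIs in 0, 5, 6 and 5 MHC-high cells. These are 0, 7.31 (3.89 to 12.5), 17.1 (9.36 to 28.7) and 19 CPM (13.2 to 26.4). The D7 level was at least 3.96-fold higher than at D0, at least 2.16-fold without its richest cell, which held 16 UMIs and left fewer than the 30 needed for a call, and at least 6.17-fold with the UMI thresholds doubled. D7 was 1.11 times D4 (0.582 to 2.23), a difference within counting error. At D1 the gate held 13 UMIs of Ccl22 and 4 of Ccl17, both under the 30 needed for a call, so no order between the genes is read.

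**Figure D2:**
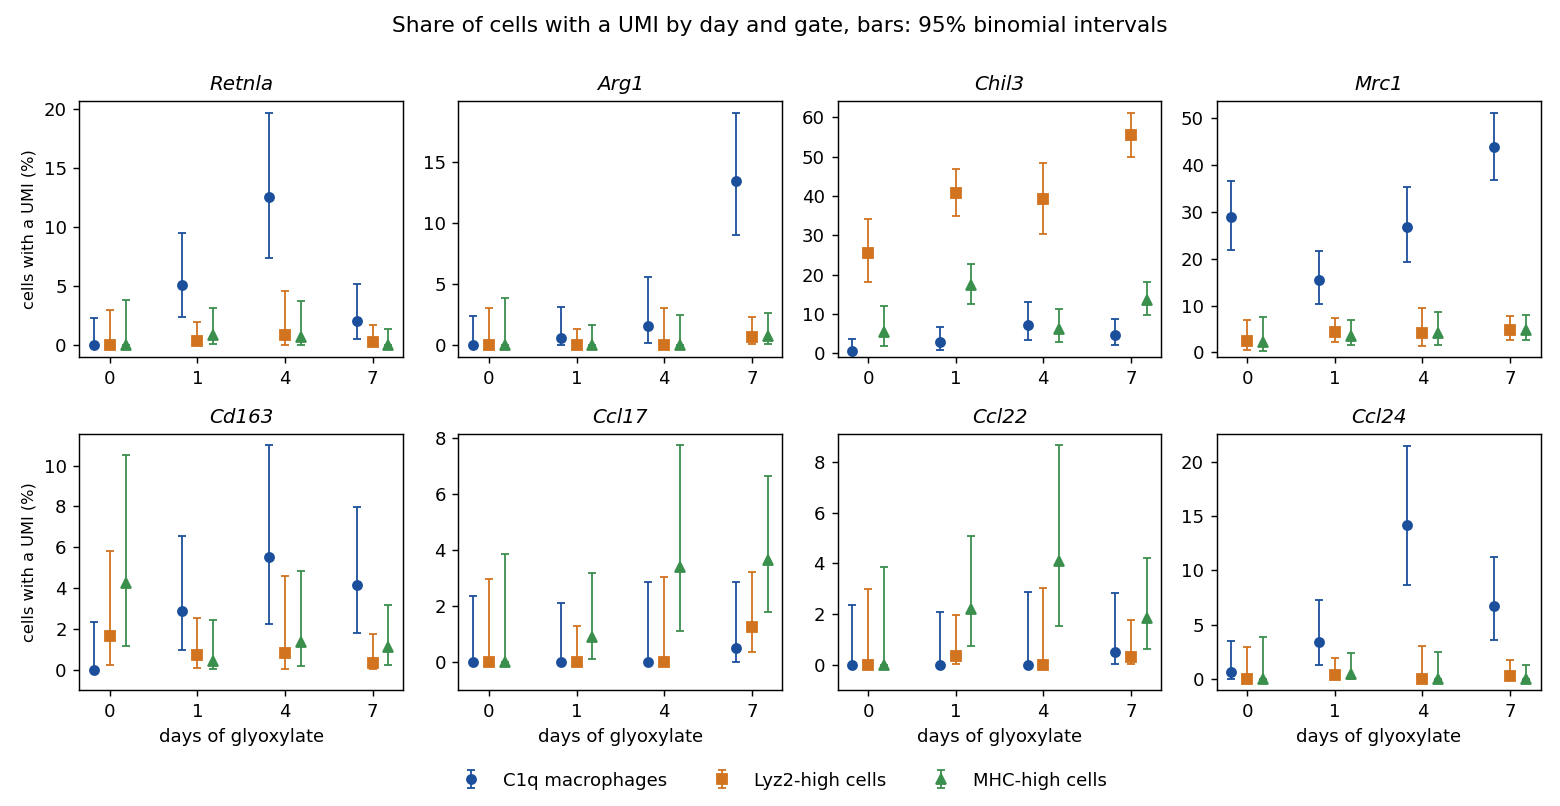
Share of cells with at least 1 UMI of each member (%) against days of glyoxylate in the same 3 gates, with exact 95% binomial intervals as bars. Axes differ between panels. The Retnla share of C1q macrophages is highest at D4 (12.6%) and the Arg1 share at D7 (13.4%).

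Values next to the gate thresholds were small for the genes of C1q macrophages. The 57 cells at the 3 lowest C1q sums inside the gate held 0 UMIs of Retnla, 1 of Arg1, 5 of Mrc1, 1 of Cd163 and 2 of Ccl24, and the 180 cells at the 3 highest sums outside that have at least 2 C1q UMIs held 1, 3, 6, 0 and 0. The 53 cells just inside the Lyz2 threshold held 2 UMIs of Chil3 and the 331 just outside held 3. For MHC-high cells the 165 cells within 10 UMIs inside held 134 UMIs of Chil3, 3 of Ccl17 and 1 of Ccl22, and the 513 within 10 outside held 174, 0 and 0.

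Within C1q macrophages, Retnla, Ccl24, Cd163 and Mrc1 were found in the same cells. Of the 29 Retnla-positive cells of the 3 treated days, 23 had a UMI of Ccl24 where 2.84 would be given by unrelated shares within each library, 26 had Mrc1 (7.42) and 13 had Cd163 (1.30). All 20 Cd163-positive cells had Mrc1 (6.15), and 15 had Ccl24 (1.70). Of the 38 Ccl24-positive cells, 33 had Mrc1 (11.7). Of 15 pairs of members in this gate for which unrelated shares give at least 0.5 cells, 8 were found together in at least 2 times as many cells as unrelated shares give, and 7 after thinning to equal depth, with 6 pairs in both counts. These 6 are the pairs among Retnla, Mrc1, Cd163 and Ccl24. Deeper cells show more of every gene. The Retnla-positive cells at D1 had a median depth of 14378 UMIs against 3084 for the others. The D4 cells, with 6028 against 5152, are thus the better guide. At D4, 14 of 16 Retnla-positive cells had Ccl24 (2.27 by unrelated shares), 15 had Mrc1 (4.28) and 6 had Cd163 (0.882). All 7 Cd163-positive cells of D4 had Mrc1 (1.87) and Ccl24 (0.992), and all 18 Ccl24-positive cells had Mrc1 (4.82).

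Arg1 and Retnla were found together in 1 cell, the D1 cell with Prg4 described above, where 0.839 would be given by unrelated shares. At D7, with 4 Retnla-positive and 26 Arg1-positive cells, the number was 0, and 0.536 would be given. Of the 29 Arg1-positive cells, 23 had Mrc1 (12.1 by unrelated shares, 1.90 times), 7 had Ccl24 (2.06, 3.40 times) and 3 had Cd163 (1.21, 2.48 times). Thinned to equal depth, these ratios were 1.67, 1.96 and 0.732, all under 2, and the Arg1-positive cells had a median depth of 9151 UMIs against 4056 for the others. In MHC-high cells, 7 of the 17 Ccl17-positive and 16 Ccl22-positive cells were the same, where 0.431 would be given, 0 of them at D1, 3 at D4 and 4 at D7.

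**Figure D3:**
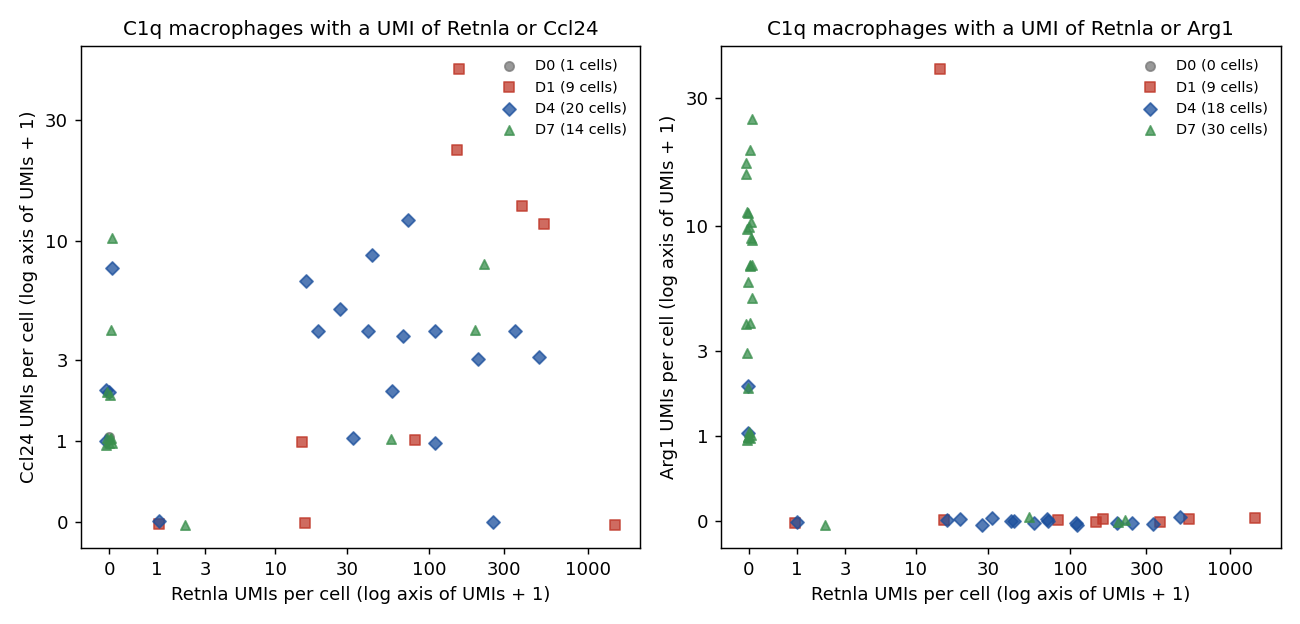
UMIs per cell in C1q macrophages (both axes logarithmic in UMIs + 1, points moved slightly at random to separate them), Retnla against Ccl24 on the left and Retnla against Arg1 on the right, with the symbol giving the day. Cells with many Retnla UMIs mostly have Ccl24, while the 26 Arg1-positive cells of D7 all lie at 0 Retnla.

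Members per cell were counted without thinning. C1q macrophages were shallowest at D0, with a median depth of 2348 UMIs against 3112, 5283 and 5863 at D1, D4 and D7. At D0, where Retnla, Arg1, Cd163, Ccl17 and Ccl22 had 0 UMIs in this gate, no C1q macrophage held more than 1 of the 8 members. There, 47 of 156 held 1. At D1, D4 and D7, 4, 7 and 3 cells held 4 or more, up to 4, 5 and 4 members in a cell. In Lyz2-high cells 1, 3, 1 and 9 cells held more than 1 member, and in MHC-high cells 1, 0, 3 and 9.

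Retnla-positive cells of D4 more often held genes known from resident macrophages than Retnla-negative ones, and also the monocyte receptor Ccr2. Among the 16 positive and 111 negative C1q macrophages, a UMI of Folr2, the folate receptor beta, was found in 75% and 5.41%, of Lyve1, the hyaluronan receptor, in 50.0% and 2.70%, of the C-type lectin Cd209f in 56.2% and 0%, and of the phosphatidylserine receptor Timd4 in 37.5% and 0%. F13a1, coagulation factor XIII A, was in 81.2% and 7.21%, and Spp1, osteopontin, in 56.2% and 66.7%. Trem2, a lipid receptor of macrophages, was in 50% and 9.01%, Fn1, fibronectin, in 31.2% and 9.01%, and Ccr2, which draws monocytes from blood, in 56.2% and 20.7%. In the Arg1-positive cells of D7 these last 3 were the most frequent of the compared genes that are no members, beside Spp1. Among 26 positive and 168 negative cells, Trem2 was found in 96.2% and 28.0%, Fn1 in 92.3% and 13.7%, Ccr2 in 80.8% and 18.5%, and Spp1 in 92.3% and 68.5%. Folr2 was in 23.1% and 7.74% and F13a1 in 34.6% and 10.7%. In both comparisons Folr2, F13a1, Trem2, Fn1 and Ccr2 were thus detected more often in the positive cells. By level at D7, Folr2 was close in positive and negative cells, at 80.7 and 73.6 CPM. F13a1 was at 140.1 and 86.2 CPM, Trem2 at 722 and 144, Fn1 at 1397 and 87.2, and Ccr2 at 369 and 93.0. Cd209f was in 0% and 1.79% and Lyve1 in 3.85% and 2.38% of these cells, whose median depths were 8856 and 5436 UMIs. Folr2, Lyve1, Cd209f, Timd4, F13a1, Trem2, Spp1, Fn1 and Ccr2 were taken for this comparison after values of these data had been seen.

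**Figure D4:**
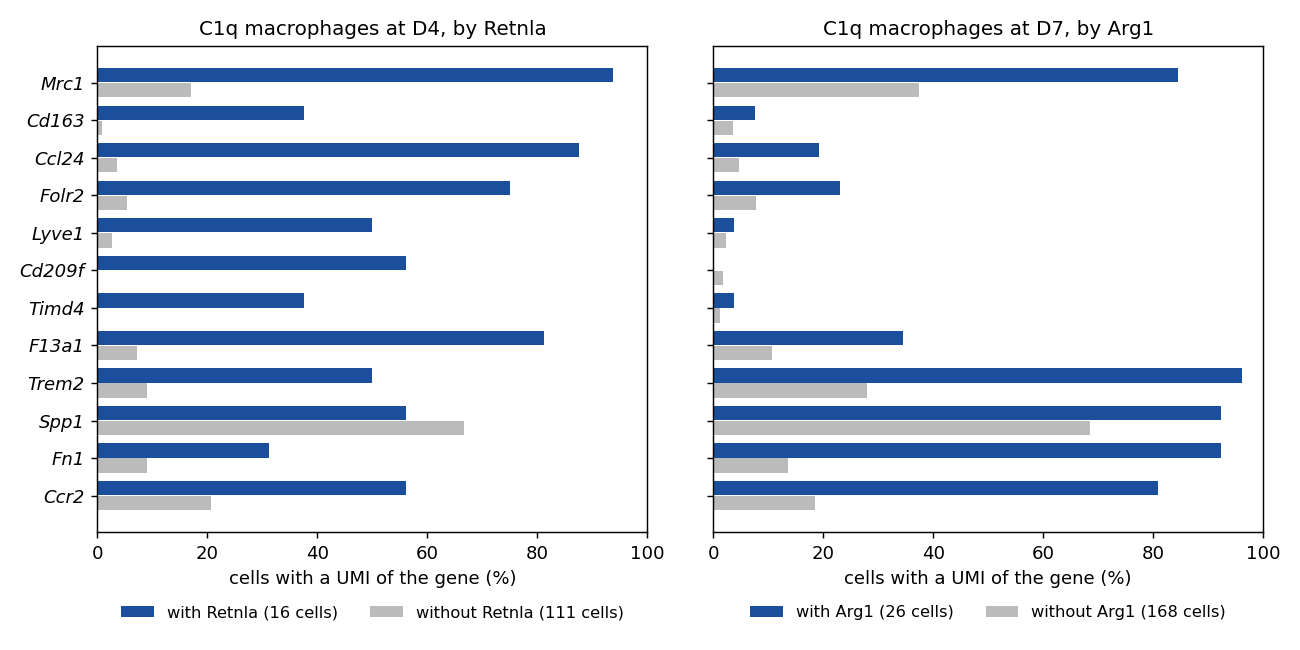
Share of C1q macrophages with a UMI of each gene (%), for cells with Retnla (16) and without (111) at D4 on the left, and for cells with Arg1 (26) and without (168) at D7 on the right. Folr2, Cd209f and Ccl24 were found in 75%, 56.2% and 87.5% of the Retnla-positive cells of D4, and Trem2 and Fn1 in 96.2% and 92.3% of the Arg1-positive cells of D7.

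Cells with at least 2 UMIs of Lyve1, Folr2 or Cd209f numbered 0 of 156, 5 of 175, 16 of 127 and 12 of 194 by day. They held 46.3%, 79.0% and 100% of the Retnla UMIs at D1, D4 and D7, and 99.0%, 97.4% and 40.5% of the Ccl24 UMIs. The richest Retnla cell of D1, with 1495 UMIs, was not one of them: it had 0 UMIs of Folr2, Lyve1, Cd209f and Ccl24, and 72 of Fn1 and 305 of Cd74. The next 3 cells of that day, with 554, 372 and 158 Retnla UMIs, each held 40 to 49 UMIs of Folr2 and 39 to 89 of Cd209f. At D7, 54 cells with at least 2 UMIs of Trem2 held 91.5% of the Arg1 UMIs. These subsets were set after values had been seen, and at D0, where 0 cells met the first, the cells were also the shallowest.

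Genes most like a member were taken as the 6 with the largest excess of UMIs in member-positive over member-negative cells of the same gate and library. For Retnla these were Cd209f (at least 184 times), Fcna (109), Cd209g (at least 69.3), Lyve1 (at least 67.3), Folr2 (62.1) and Ccl24 (at least 57.7), over 29 positive cells in 3 libraries. For Arg1 they were Cd5l (at least 19.7, in 3 cells), F10 (at least 19.7, in 13), Fn1 (18.9, in 26), Icam2 (at least 11.3, in 7), Mcemp1 (8.49, in 12) and Ecm1 (6.50, in 21), over 29 cells, and the D1 cell with Prg4 alone held 28 of the 34 Icam2 UMIs. For Chil3 in Lyz2-high cells, over 369 positive cells, they were S100g (5.28, in 41 cells), Cd177 (5.19), Thbs1 (3.33), Ms4a8a (3.0), Ccl2 (2.86) and Rhou (2.81). For Ccl17, over 17 cells, they were led by Bcl2a1b (23.9), AA467197 (at least 20.7) and Mgl2 (18.7), and for Ccl22, over 16 cells, by Ccl17 itself (at least 56.3), Ccr7 (at least 20.3), the receptor that guides dendritic cells to lymph nodes, and Bcl2a1b (19.3). Cd163 was led by Cd209f (66.1, in 12 cells) over 20 cells, and Ccl24 by Cd209f (at least 184, in 17) over 38. Mrc1 was led by Retnla (1125), which was found in only 26 of the 191 positive cells (13.6%).

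Over the 12 sums of a gate on a day, the genes with the closest levels (Pearson r of log2(CPM + 10), 6193 candidate genes) were Cd209f, Fcna and Cd209g for Retnla (0.95 each), Stab1 and C1qc for Mrc1 (0.99 each), Lyve1 for Cd163 (0.94) and Hp for Chil3 (0.94). Ccl17 and Ccl22 were closest to Havcr1 (0.97 and 0.94), a gene of injured tubule cells. The 12 sums share libraries and cells, so these are descriptions.

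Chil3-positive Lyz2-high cells had a UMI of monocyte markers more often than Chil3-negative ones on each day. Ly6c2, a surface marker of inflammatory monocytes, had a UMI in 64.5%, 46.1%, 61.7% and 56.8% of positive and 28.6%, 25.7%, 46.6% and 33.3% of negative cells by day. Plac8, another gene of these monocytes, was in 100%, 90.4%, 97.9% and 98.9% of positive and 72.5%, 70.7%, 79.5% and 87.9% of negative cells. Median depths over all days were 4688 and 4278 UMIs. The summed level of the neutrophil list in the gate was 4551, 8169, 699 and 905 CPM by day. Leaving out cells with markers of other classes kept 107, 245, 112 and 305 Lyz2-high cells by day. In that setting 0 of 23 single ratios of the members moved beyond their counting intervals. The part of neutrophil RNA in the Chil3 levels was not tested beyond this.

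The cytokines IL-4 and IL-13 were at the limit of detection. In the 3 gates over the 4 days there was 1 UMI of Il4 and 1 of Il13, and T cells at D0 held 5 UMIs of Il4. The common receptor chain Il4ra was 30.3, 19.4, 22.5 and 37.1 CPM in C1q macrophages, 23.7, 32.0, 17.2 and 38.2 in Lyz2-high cells and 16.0, 28.1, 15.9 and 22.8 in MHC-high cells. Il13ra1, its partner for IL-13, was 13.2 CPM at D0 and 30.8 at D7 in C1q macrophages, 2.32 times (1.03 to 6.15). Of the IL-4 and IL-13 pathway list, 0 of 6, 0 of 6 and 1 of 8 measured genes were higher at D1, D4 and D7 and 0 lower, with median log2 ratios of 0.13, 0.05 and 0.26. The medians over all genes were 0.09, 0.10 and 0.02. For this and every list below, the shares of all genes called in each gate are those given with the members. The lists were chosen with earlier results of these data known, so nothing is read from their counts against those shares.

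Of the other genes associated with alternative activation, 7 of 16 measured in C1q macrophages were higher at D1, 10 of 16 at D4 and 14 of 18 at D7, and 0, 1 and 0 were lower. The shares over all genes were 4.25%, 5.53% and 6.31% higher and 2.10%, 4.71% and 4.49% lower. The list was chosen with earlier results of these data known, so nothing is read from this difference. Its higher genes at D7 include Folr2, Lyve1, Cd209f, F13a1, Fn1 and Trem2, which were compared above after values had been seen. The list had median log2 ratios of 0.76, 1.31 and 2.38. At D7 the largest ratios among genes with a UMI at D0 were those of Fn1, a matrix protein, 175 (31.2 to 6915), Ccl8, a chemokine, 57.9 (19.7 to 282), and F13a1, 17.0 (5.66 to 83.3). Cd209f, Folr2 and Lyve1 had 0 UMIs at D0 and were at least 14.3-fold, 13.2-fold and 4.86-fold higher, bounds that leave their place among these unknown. The smallest were Mgl2, a galactose lectin, 0.519 (0.429 to 0.628), Cd36, a fatty acid receptor, 0.874 (0.596 to 1.30), and Tgfb1, 1.26 (0.959 to 1.68). In Lyz2-high cells the same list had 1, 0 and 3 genes higher and 2, 1 and 0 lower, of 10, 8 and 11, and in MHC-high cells 1, 2 and 1 higher and 1, 0 and 0 lower, of 10, 8 and 9.

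Genes of classical activation, the response to interferon and bacterial products, went both ways. In C1q macrophages 2, 1 and 4 were higher and 1, 7 and 4 lower, of 11, 11 and 13 measured, with median log2 ratios of -0.09, -1.07 and -0.22. At D7 Cxcl9 and Cxcl10, chemokines induced by interferon, were 0.0848 times (0.0604 to 0.117) and 0.348 times (0.256 to 0.472) their D0 levels, and Ccl5 0.364 times (0.267 to 0.494). Cd38, Ccl2 and Cxcl2 were 33.3 (5.82 to 1333), 24.0 (14.9 to 41.4) and 4.86 times (3.99 to 5.98) higher. Nos2, the enzyme that competes with arginase for arginine, had 0 UMIs in all gates on all days.

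Around Arg1, the other arginine and polyamine genes had 0 higher in C1q macrophages on any day and 1 of 9 lower at D7, Asl, at 0.463 times D0 (0.333 to 0.646). Ass1 was at 0.505 (0.439 to 0.583), and Odc1, which turns the ornithine made by arginase into polyamines, was 352, 268, 417 and 269.7 CPM. Asl and Ass1 are also genes of the proximal tubule, whose RNA was present in the gate as given above.

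Around Cd163, haemoglobin and heme genes in C1q macrophages had 3 of 8, 1 of 6 and 4 of 9 higher and 0 lower, beside 4.25%, 5.53% and 6.31% of all genes higher and 2.10%, 4.71% and 4.49% lower. Hmox1, the heme oxygenase, was 51.1, 109.5, 125 and 211 CPM, 4.14 times at D7 (2.78 to 6.40). Lrp1, a receptor for heme with hemopexin, was 5.50 times (2.90 to 11.7), and Slc40a1, the iron exporter, 3.47 times (1.49 to 9.91). Hp, haptoglobin, was 311, 537, 279 and 525 CPM in Lyz2-high cells.

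Around Mrc1 and Chil3, glycan receptors and chitinase-like genes in C1q macrophages had 2 of 4, 2 of 3 and 3 of 4 higher and 0, 1 and 0 lower. At D7 the largest were Retnlg, a relative of Retnla known from neutrophils, 35.4 times (6.19 to 1416), and Clec4n, the lectin dectin-2, 10.1 times (5.54 to 20.4). The neutrophil list in this gate was 125, 42.2, 45.1 and 523 CPM by day.

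Receptors for the member chemokines were nearly absent. Ccr4 had 0 UMIs in the 3 gates and 4, 9, 1 and 2 UMIs in T cells by day. Ccr8 had 0 in the gates, and Ccr3 had 1 UMI in C1q macrophages at D7 and 2 in T cells at D0. Of the other chemokine receptors in C1q macrophages, 2, 0 and 1 of 4 were higher and 0 lower, with Ccr1 at 6.13 times D0 at D7 (3.24 to 13), Ccr2 at 1.29 (0.959 to 1.76) and Cx3cr1 at 0.512 (0.420 to 0.625).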

How the data were processed

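Whole kidney suspensions of 4 groups of mice were measured by droplet-based 3′ single-cell RNA sequencing, 1 library per group, after trypsin and DNase digestion and lysis of red cells, per the labels' protocols. The authors deposited unnormalized UMI counts per gene and cell barcode, made with Cell Ranger 3.1.0 on mm10 per the submitters' processing notes (the file headers name software version 3.0.1); the annotation release is not given in the sources used here. The deposited lists of barcodes begin at different depths in the libraries.

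Barcodes under 300 genes or 500 UMIs, or above 50% mitochondrial UMIs, were dropped, and no doublet caller was run. The gates are those given at the start of the report. UMIs of the cells of a gate were summed within a library and scaled to CPM. Ratios between days have exact 95% intervals for 2 Poisson counts and shares have exact Clopper-Pearson intervals; a level of 0 was replaced by a floor of 3 UMIs per library for a bound. Cells are not replicates and each group is 1 library, so no p-value was computed. Proximal tubule cells and T cells served as background. The scripts were tested on simulated data. Python 3.11.15, numpy 2.4.6, scipy 1.17.1, pandas 2.3.3, matplotlib 3.10.9, R 4.3.3 and edgeR 4.0.16 (for TMM factors only) were used. Gene positions are from the annotation of mm10, and sequences from RefSeq.

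The members and the 7 gene lists (IL-4 and IL-13 pathway, other alternative activation, classical activation, arginine and polyamine, haemoglobin and heme, chemokine receptors, glycan receptors and chitinase-like) were chosen with earlier results of these data known. Named beside the members were up to 3 genes of each list with the largest and the smallest D7 ratio in C1q macrophages and Lyz2-high cells, their ligand and receptor partners, and the 6 genes with the largest excess in member-positive cells and the 3 closest over the gate sums, of which the text gives the leading ones. Alternatives were a depth limit of 3000 UMIs, at most 25% mitochondrial UMIs, gates at 2 times the UMIs or on shares of UMIs, leaving out cells rich in tubule RNA or with markers of other classes, TMM factors, no minimum of UMIs and thinning to 1000 UMIs. Leaving out the richest cell of each member, and the depth limit in the comparison between gates, were added after the data had been seen.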

Additional observations from a re-analysis of the deposited data

How the results depend on the processing

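No paired analysis was possible because each group has 1 library, and all carry the replicate number 1. For the same reason no replicate could be left out. In C1q macrophages 10 of 14 measured pairs of member and day were higher than at D0, with 8 to 12 over the 9 alternatives. The number lower was 0, and 1 with at least 3000 UMIs per cell, which was Chil3 at D7. In Lyz2-high cells 3 of 5 were higher (2 to 4 over the alternatives) and 0 lower, and 3 were lower with no minimum of UMIs, each a Cd163 value of at most 2 UMIs. In MHC-high cells 6 of 6 were higher and 0 lower. Without the richest cell of each member 3 of the 3 still measured were higher, fewer because pairs then fell under the minimum of UMIs. With no minimum 3 were lower, again Cd163. The comparison between gates, made for the members only, gave 20 of 20 throughout. Co-detection gave 8 of 15 pairs, or 7 thinned to 1000 UMIs, with 6 in both. Of 218 alternative values of the 25 single ratios, 189 lay within the counting interval of the reported value and 29 moved beyond it. The number counted as reversed was 0, but this says little. A ratio not called higher or lower, or an alternative that is only a lower bound, could not be counted as reversed. The D7 ratio of Mrc1 in C1q macrophages, 1.97, was 2.11 with TMM factors. The main limits are the single library per day, the 54 C1q macrophages of at least 3000 UMIs at D0, and the small number of cells that carry each member.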
